A study of Mus musculus with 4 samples.

Results

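The cholesterol and fatty acid synthesis genes are a list of 31 mouse genes: the enzymes that turn acetyl-CoA into mevalonate, squalene and sterols, the enzymes that build and desaturate fatty acids, and the SREBP factors with their regulators. Members were found by gene symbol among the probe sets of an Affymetrix array, and each gene was represented by its brightest probe set that names no other gene. Of the 31 genes, 30 had such a probe set, out of 18193 genes so named on the array, and Acat2 is not analysed here. All 30 reached the median intensity of 157 on at least 1 array, as did 12239 of the 18193 genes. RNA was measured in 4 sorted populations of bone marrow with 1 array each: Fbw7-deficient LSK, wild-type LSK, Fbw7-deficient MP and wild-type MP cells. LSK cells (Lin-ckit+Sca1+) are the fraction that holds the stem cells of the blood, and MP cells (Lin-ckit+Sca1-) are myeloid progenitors without Sca1. PolyI:C (20 ug per g) had been injected 3 times into all mice, wild-type ones too, and marrow was taken 2 weeks later. Each genotype is 1 pool of 3 mice, divided into LSK and MP cells. The sources used here do not give the age or strain of the mice, the deleted part of the gene or the cells in which it was deleted. Fbw7, encoded by Fbxw7, is the substrate-binding part of an SCF ubiquitin ligase.

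With 1 array per group there is no error between replicates, and no test was made. Each difference lies between single arrays, and it is read against the spread of the 12239 genes above the level filter. In bulk RNA of sorted cells, fewer cells of a type and less RNA per cell cannot be told apart. The wild-type LSK array stood apart in RNA quality: the Gapdh control probe sets gave a 3' over 5' ratio of 2.75 in Fbw7-deficient LSK and 4.30 in wild-type LSK, and 2.95 in Fbw7-deficient MP and 2.60 in wild-type MP. Its part in the LSK genotype results was not tested, and the MP genotype comparison does not use that array. The brightest Fbxw7 probe set read 1103 in Fbw7-deficient LSK and 1355 in wild-type LSK, and 958 in Fbw7-deficient MP and 691 in wild-type MP. The 2 Fbxw7 probe sets gave log2 differences of -0.30 and 0.09 in LSK and of 0.47 and 0.44 in MP, and whether they lie in the deleted part is not known, so they do not check the labels. The stem cell marker genes were higher on the LSK than on the MP array for 9 of 9 measured in each genotype, which goes with the sort labels. Ly6a, the gene of Sca1, is not analysed here, and Kit, the gene of ckit, read 4190 to 6722 on the 4 arrays.

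Cells make cholesterol and fatty acids from acetyl-CoA. When sterol in the endoplasmic reticulum is low, Scap escorts the SREBP precursors to the Golgi, where they are cut. The freed factors then enter the nucleus and switch on the genes of both pathways, while Insig proteins hold Scap back when sterol is plentiful. Nuclear SREBP proteins are known from cultured mammalian cells to be substrates of Fbw7. The arrays measure RNA and do not show SREBP protein or its cleavage. SREBP factors act on promoters together with the CCAAT-binding factor NF-Y and with Sp1.

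The promoters of 5 genes are shown because they stand for the main patterns: Hmgcs1 at the head of the pathway, Idi1, Tm7sf2 and Acss2, which differed by at least 1.5-fold between genotypes, and the SREBP regulator Insig1. The sequences run from 250 bases before to 50 bases after the gene's start (RefSeq, GRCm38.p6), with capitals marking TCACNCCAC, a form of the sterol regulatory element, or CCAAT, on either strand. They lie at chr13:119690101-119690400 on the plus strand for Hmgcs1, chr13:8885356-8885655 on the plus strand for Idi1, chr19:6067801-6068100 on the minus strand for Tm7sf2, chr5:28071162-28071461 on the plus strand for Insig1 and chr2:155517793-155518092 on the plus strand for Acss2.
Hmgcs1: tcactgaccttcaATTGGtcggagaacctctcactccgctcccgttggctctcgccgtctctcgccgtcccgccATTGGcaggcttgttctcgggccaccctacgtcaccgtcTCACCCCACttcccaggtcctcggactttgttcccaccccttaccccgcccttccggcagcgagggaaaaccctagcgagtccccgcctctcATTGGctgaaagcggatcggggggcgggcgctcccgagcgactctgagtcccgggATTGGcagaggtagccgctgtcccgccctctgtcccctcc
Idi1: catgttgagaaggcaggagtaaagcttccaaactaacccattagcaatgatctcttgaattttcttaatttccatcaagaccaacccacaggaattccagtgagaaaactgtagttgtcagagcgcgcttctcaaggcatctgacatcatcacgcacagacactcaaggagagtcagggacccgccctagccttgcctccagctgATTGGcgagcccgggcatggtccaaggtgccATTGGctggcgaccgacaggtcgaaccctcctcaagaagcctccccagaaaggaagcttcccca
Tm7sf2: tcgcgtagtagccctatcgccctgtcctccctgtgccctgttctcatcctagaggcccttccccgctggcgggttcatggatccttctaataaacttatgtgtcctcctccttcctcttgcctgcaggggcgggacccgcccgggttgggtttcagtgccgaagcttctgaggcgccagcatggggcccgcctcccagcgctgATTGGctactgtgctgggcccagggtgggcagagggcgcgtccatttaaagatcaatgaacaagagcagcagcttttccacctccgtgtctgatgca
Insig1: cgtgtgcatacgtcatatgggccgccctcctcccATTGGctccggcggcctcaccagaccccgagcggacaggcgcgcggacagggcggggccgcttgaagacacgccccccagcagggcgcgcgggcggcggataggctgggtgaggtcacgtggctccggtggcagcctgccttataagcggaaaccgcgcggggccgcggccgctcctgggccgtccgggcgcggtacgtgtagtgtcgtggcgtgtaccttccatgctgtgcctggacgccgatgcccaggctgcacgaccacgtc
Acss2: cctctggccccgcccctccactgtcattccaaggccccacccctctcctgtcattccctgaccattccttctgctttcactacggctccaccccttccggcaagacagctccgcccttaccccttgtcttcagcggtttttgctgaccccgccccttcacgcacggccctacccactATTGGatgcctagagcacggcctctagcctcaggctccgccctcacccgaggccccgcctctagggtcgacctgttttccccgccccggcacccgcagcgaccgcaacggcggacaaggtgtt

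The window of Hmgcs1 held 1 match to TCACNCCAC and 4 to CCAAT, that of Idi1 held 2 CCAAT matches, and those of Tm7sf2, Insig1 and Acss2 held 1 CCAAT match each. No match of one motif overlapped one of the other in these windows. Promoter windows were matched by symbol for 25 of the 31 genes, all but Fdft1, Fdps, Scd1, Scd2, Sqle and Stard4. CCAAT stood in at least 1 window of 21 of the 25 genes (84.0%), against 41.1% of 27025 genes with a window and 42.4% of 9900 genes above the level filter. GGGCGG, the GC box that Sp1 binds, stood in 21 of 25 (84.0%), against 38.2% of all genes and 66.5% of those above the filter. TCACNCCAC stood in 1 of 25 (4.0%), against 1.44% of all genes and 1.39% of those above the filter. CACGTG, an E-box, stood in 5 of 25 (20.0%), against 8.09% and 11.5%. Both strands were searched for each motif. A match in these letters is a description of the window and not a binding site.

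The genotype comparisons ask how loss of Fbw7 alters the RNA of these genes in LSK and in MP cells. On their brightest probe sets, most members read higher in Fbw7-deficient than in wild-type cells in both populations, by small amounts. In LSK cells 25 of 30 were above 0, where 50.7% of all genes were, with a median log2 difference of 0.26 against 0.005 for all genes. In MP cells 25 of 30 were above 0, where 49.6% of all genes were, with a median of 0.26 against -0.002. The MP result was smaller on other probe sets: the median was 0.155 when the probe sets of each gene were averaged. Of 22 further probe sets, 13 were above 0 in MP. On the second-brightest probe set of the 14 members with one, the median was 0.034 in MP and 0.147 in LSK. These 14 are a part of the 30, so the last 2 medians also reflect a change of genes. The LSK and MP genotype comparisons share no array but share the pools of mice. Of the 30 genes, 21 were higher in Fbw7-deficient cells of both populations and 1, Acly, was lower in both, against 31.4% and 31.1% of all genes. The other 8 were above 0 in one population and below 0 in the other. An Fbw7-deficient array gave the highest of the 4 values for 26 of 30 members, against 47.6% of all genes, and a wild-type array gave the lowest for 24, against 53.8%. For the 21 genes higher in both populations this order follows from the signs of the 2 differences.

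**Figure D1:**
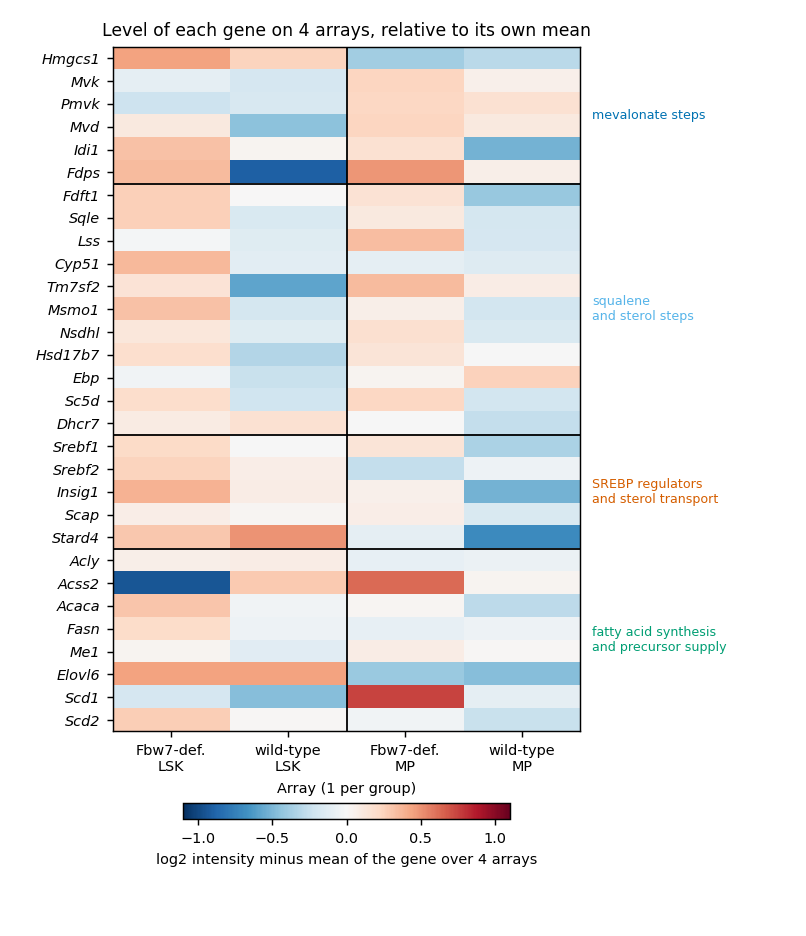
Heat map of the 30 measured genes (rows, by role) on the 4 arrays (columns, Fbw7-deficient left of wild-type within LSK and within MP), coloured by log2 intensity minus the gene's own mean over the 4 arrays. Most sterol enzymes are redder in the Fbw7-deficient than in the wild-type column of the same population, and Acss2 is lowest in Fbw7-deficient LSK and highest in Fbw7-deficient MP.

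Few members passed a fold threshold. In LSK cells 2 of 30 were at least 1.5-fold higher in Fbw7-deficient cells, Fdps and Tm7sf2, where 4.5% of all genes were, and 1, Acss2, was lower by 1.5-fold or more, where 7.08% of all genes were. In MP cells 4 of 30 were at least 1.5-fold higher, Scd1, Idi1, Acss2 and Stard4, where 2.97% of all genes were, and none was 1.5-fold lower, where 5.26% of all genes were. The 4 became 1 with the mean of all probe sets of a gene, 2 without cross-reacting kinds of probe set and 2 with an offset of 50 added to each intensity. They became 5 with differences centred on their median and 6 with quantile normalization. At 2-fold only Fdps was higher in LSK (1.79% of all genes) and only Acss2 lower (1.95%), and no member passed 2-fold in MP in either direction (0.825% and 1.49%). Between the populations the genotype differences did not lean one way: that in LSK minus that in MP was above 0 for 15 of 30 members, with a median of log2 -0.01. It was at least 1.5-fold higher for 1, Fdps at log2 0.81 (5.68% of all genes), and lower by that much for 2, Acss2 and Stard4 (5.47%). At 2-fold none was higher (2.2%) and 1, Acss2, was lower (1.32%).

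Of the 6 measured genes of the mevalonate steps, 5 were above 0 in LSK (50.7% of all genes) and 5 in MP (49.6%). Their medians were log2 0.25 and 0.15. The largest difference was that of Fdps, which makes farnesyl diphosphate, the branch point to squalene and to protein prenylation. Fdps read 733 in Fbw7-deficient LSK and 310 in wild-type LSK, and 810 in Fbw7-deficient MP and 602 in wild-type MP. It was thus 2.36-fold higher in Fbw7-deficient LSK (log2 1.24) and 1.35-fold higher in Fbw7-deficient MP (log2 0.43), and the wild-type LSK array alone lay below the other 3. Its other probe set did not pass the filter, at 22 to 24 on every array. Mvd, the mevalonate diphosphate decarboxylase, was also lowest in wild-type LSK, with 274 in Fbw7-deficient LSK and 185 in wild-type LSK, and 299 in Fbw7-deficient MP and 274 in wild-type MP (log2 0.56 and 0.13). Its dimmer probe set, at no more than 161, gave log2 0.33 in LSK and -0.12 in MP.

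Idi1, the isomerase that interconverts the isoprenoid building blocks, differed more in MP. It read 2882 in Fbw7-deficient LSK and 2345 in wild-type LSK, and 2578 in Fbw7-deficient MP and 1605 in wild-type MP, so it was 1.61-fold higher in Fbw7-deficient MP (log2 0.68) and 1.23-fold higher in Fbw7-deficient LSK (log2 0.30). The other probe set of Idi1 gave log2 0.36 in LSK and 0.44 in MP. Hmgcs1, which forms HMG-CoA, read 5018 in Fbw7-deficient LSK and 4380 in wild-type LSK (log2 0.20), and 2840 in Fbw7-deficient MP and 3004 in wild-type MP (log2 -0.08). All 3 further probe sets of Hmgcs1 above the filter pointed the same ways more strongly, from log2 0.43 to 0.52 in LSK and from -0.50 to -0.19 in MP. The kinases Mvk and Pmvk, which phosphorylate mevalonate and its phosphate, differed little, with log2 0.08 and -0.05 in LSK and 0.18 and 0.06 in MP.

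Of the 11 enzymes from squalene to cholesterol, 10 were above 0 in LSK (50.7% of all genes) and 10 in MP (49.6%). Their medians were log2 0.41 and 0.27. The exception in LSK was Dhcr7, the reductase that finishes cholesterol (log2 -0.08), and the exception in MP was Ebp, a sterol isomerase (log2 -0.23). Tm7sf2, a sterol reductase that follows Cyp51, read 629 in Fbw7-deficient LSK and 379 in wild-type LSK, and 720 in Fbw7-deficient MP and 599 in wild-type MP. It was 1.66-fold higher in Fbw7-deficient LSK (log2 0.73) and 1.20-fold higher in Fbw7-deficient MP (log2 0.27), and has 1 probe set. As for Fdps and Mvd, its wild-type LSK value was the lowest of the 4.

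The next enzymes in size of the LSK difference were the methyl sterol oxidase Msmo1 (log2 0.52 in LSK and 0.27 in MP), the ketosteroid reductase Hsd17b7 (0.50 and 0.15), the lanosterol demethylase Cyp51 (0.47 and 0.05), the squalene epoxidase Sqle (0.43 and 0.30) and the sterol desaturase Sc5d (0.41 and 0.43). Sqle read 2416 in Fbw7-deficient LSK and 1795 in wild-type LSK, and 2172 in Fbw7-deficient MP and 1768 in wild-type MP, so both Fbw7-deficient arrays lay above both wild-type arrays. The squalene synthase Fdft1 and the lanosterol synthase Lss differed more in MP, at log2 0.57 and 0.53 there and 0.26 and 0.11 in LSK. One further Fdft1 probe set gave log2 0.57 in MP and 0.40 in LSK, and another, near the filter, 0.12 and -0.15. For Cyp51 the order turned on another probe set, which gave log2 0.04 in LSK and 0.43 in MP. Further probe sets of Hsd17b7 gave log2 0.04 and 0.29 in LSK and -0.01 and 0.47 in MP, and those of Sc5d 0.02 and 0.08 in LSK and 0.03 and 0.65 in MP. The sizes of these enzymes' differences thus depended on the probe set. Nsdhl, a sterol dehydrogenase, was at log2 0.26 in LSK and 0.34 in MP.

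Over the 17 measured enzymes from Hmgcs1 to Dhcr7, 15 were above 0 in LSK (50.7% of all genes) and 15 in MP (49.6%). Their medians were 0.30 and 0.27. A wild-type array gave the lowest value for 15 of the 17 (53.8% of all genes) and an Fbw7-deficient array the highest for 15 (47.6%). For enzymes above 0 in both populations this order follows from the signs. The lowest value of Fdps, Tm7sf2, Mvd and Hsd17b7 was on the wild-type LSK array, and that of Idi1, Fdft1, Lss and Cyp51 on the wild-type MP array.

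**Figure D2:**
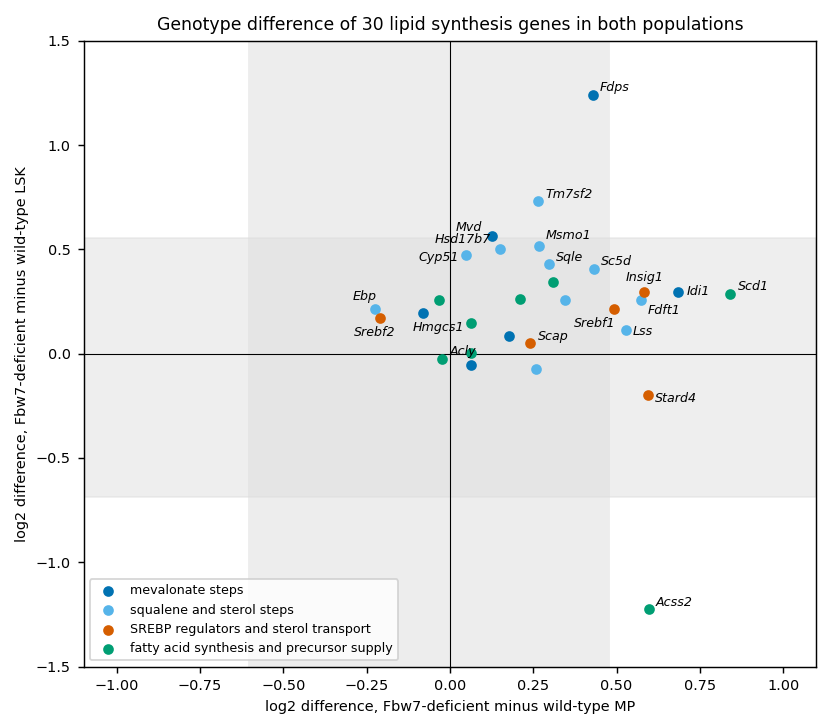
Scatter plot of the log2 difference between Fbw7-deficient and wild-type MP cells (x axis) and between Fbw7-deficient and wild-type LSK cells (y axis) for the 30 genes, 1 point per gene coloured by role, with grey bands from the 5th to the 95th percentile of all 12239 genes in each comparison. Above 0 on both axes lie 21 genes, and Acss2 is the lowest point, with -1.23 in LSK and 0.60 in MP.

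Of the 5 regulators and transport genes, 4 were above 0 in LSK (50.7% of all genes) and 4 in MP (49.6%). Their medians were log2 0.17 and 0.49. Srebf1, which encodes the SREBP factors most tied to fatty acid synthesis, read 4233 in Fbw7-deficient LSK and 3648 in wild-type LSK, and 4042 in Fbw7-deficient MP and 2873 in wild-type MP (log2 0.21 and 0.49). Both Fbw7-deficient arrays lay above both wild-type arrays. Srebf2, whose product drives mainly sterol synthesis, read 769 in Fbw7-deficient LSK and 683 in wild-type LSK, and 541 in Fbw7-deficient MP and 626 in wild-type MP (log2 0.17 and -0.21). The other Srebf2 probe set had the opposite signs, log2 -0.39 in LSK and 0.24 in MP, so the array gave no settled direction for this gene.

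Insig1 encodes the protein that holds Scap back and is itself an SREBP target. It read 456 in Fbw7-deficient LSK and 372 in wild-type LSK, and 366 in Fbw7-deficient MP and 244 in wild-type MP (log2 0.29 and 0.58), and the wild-type MP array was the lowest. Scap read 4056 in Fbw7-deficient LSK and 3921 in wild-type LSK, and 4051 in Fbw7-deficient MP and 3427 in wild-type MP (log2 0.05 and 0.24). Stard4, a carrier that moves cholesterol between membranes, read 1207 in Fbw7-deficient LSK and 1385 in wild-type LSK, and 914 in Fbw7-deficient MP and 605 in wild-type MP (log2 -0.20 and 0.59). Its other 2 probe sets were above 0 in both populations, from log2 0.08 to 0.18 in LSK and from 0.17 to 0.38 in MP, so the LSK sign of Stard4 rests on the brightest one.

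Of the 8 genes of fatty acid synthesis and precursor supply, 6 were above 0 in LSK (50.7% of all genes) and 6 in MP (49.6%). Their medians were log2 0.20 and 0.14. Acss2, the cytosolic enzyme that makes acetyl-CoA from acetate, read 368 in Fbw7-deficient LSK and 859 in wild-type LSK, and 1086 in Fbw7-deficient MP and 718 in wild-type MP. It was 2.34-fold lower in Fbw7-deficient LSK (log2 -1.23) and 1.51-fold higher in Fbw7-deficient MP (log2 0.60), and these genotype differences lay log2 -1.82 apart. The second probe set of Acss2 pointed the same ways with smaller sizes, at 368 in Fbw7-deficient LSK and 610 in wild-type LSK, and 767 in Fbw7-deficient MP and 655 in wild-type MP (log2 -0.73 and 0.23). Acly, which makes acetyl-CoA from citrate and so feeds the same step, was at log2 -0.02 in both populations on its brightest probe set, with 10737 in Fbw7-deficient LSK and 10917 in wild-type LSK. The dimmer Acly probe sets above the filter gave log2 0.35 and 0.26 in LSK and -0.54 and -0.09 in MP.

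The desaturase gene Scd1, whose product makes oleate and palmitoleate, read 346 in Fbw7-deficient LSK and 284 in wild-type LSK, and 658 in Fbw7-deficient MP and 367 in wild-type MP. It was 1.79-fold higher in Fbw7-deficient MP (log2 0.84) and 1.22-fold higher in Fbw7-deficient LSK (log2 0.29), and the Fbw7-deficient MP array stood above the other 3. The other probe set of Scd1 lay below the filter and gave log2 0.80 in MP and 0.54 in LSK. Its relative Scd2 read 14893 in Fbw7-deficient LSK and 12439 in wild-type LSK, and 12069 in Fbw7-deficient MP and 10441 in wild-type MP (log2 0.26 and 0.21). The 2 dimmer Scd2 probe sets gave log2 0.84 and 0.96 in LSK, and -0.36 and 0.62 in MP.

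Acaca, the carboxylase that commits acetyl-CoA to fatty acids, was at log2 0.35 in LSK and 0.31 in MP. Fasn, the fatty acid synthase, was at log2 0.26 in LSK and -0.03 in MP. The elongase gene Elovl6 differed by log2 0.00 and 0.06 and the malic enzyme gene Me1, which supplies NADPH, by 0.15 and 0.06. Me1 was the dimmest member, at 157 to 181.

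**Figure D3:**
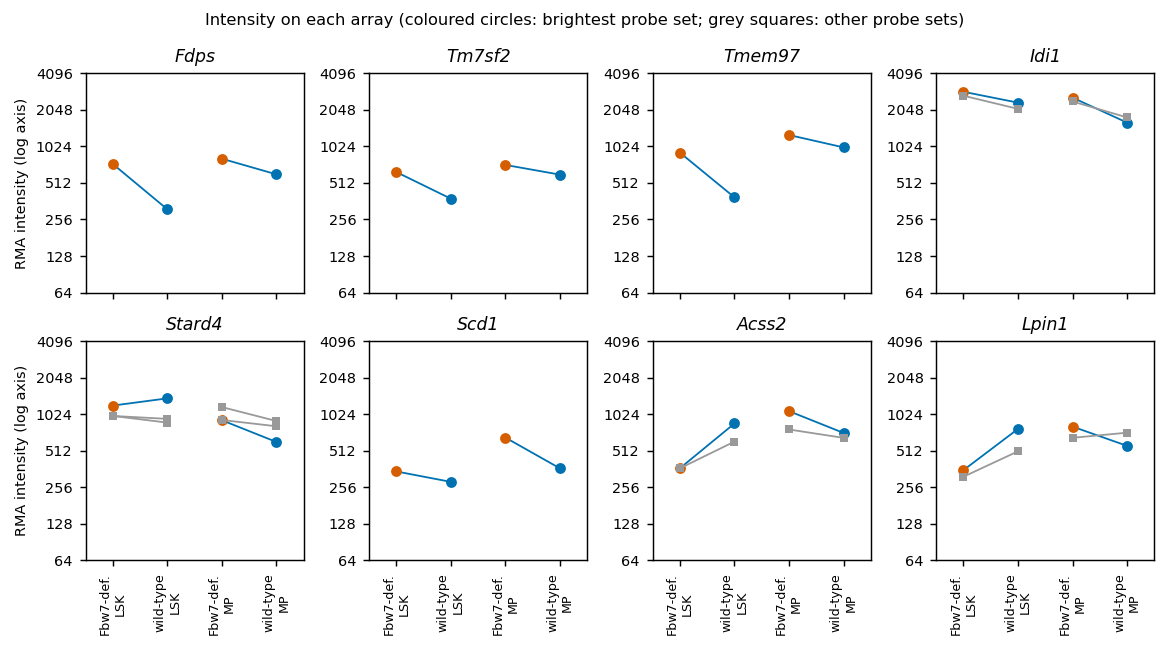
RMA intensity (log axis) on each array for 8 genes, with Fbw7-deficient left of wild-type in each population, the brightest probe set as coloured circles and other probe sets above the level filter as grey squares. Fdps, Tm7sf2 and Tmem97 are lowest on the wild-type LSK array, Scd1 is highest in Fbw7-deficient MP, and Acss2 and Lpin1 are lowest in Fbw7-deficient LSK.

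Probe sets other than the brightest bore differently on the 2 genotype results. The 30 genes have 69 probe sets, and 14 genes have further ones above the filter, 22 in all. In LSK 19 of these 22 were above 0, with a median of log2 0.22. In MP 13 of 22 were above 0, with a median of 0.08. Genes with more probe sets weigh more in these counts. With only the second-brightest probe set of each of the 14 genes, the median was 0.147 in LSK and 0.034 in MP.

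The MP cells served the study as control for LSK-enriched genes, and between the populations the member medians lay close to those of all genes. In wild-type cells 20 of 30 were higher in LSK than in MP, where 48.0% of all genes were, with a median of log2 0.05 against -0.02. In Fbw7-deficient cells 18 of 30 were higher in LSK, where 51.8% of all genes were, with a median of 0.08 against 0.01. In wild-type cells 3 members were at least 1.5-fold higher in LSK (12.7% of all genes) and 2 were lower by that much (6.91%). In Fbw7-deficient cells these counts were 2 (9.62%) and 2 (4.74%). At 2-fold 1 member, Stard4, was higher in wild-type LSK (5.05%) and none lower (2.4%), and in Fbw7-deficient cells none was higher (3.86%) and 1, Acss2, lower (1.63%). Each comparison of LSK with MP shares both of its arrays with the genotype comparisons, so a low value on one array enters both kinds.

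Stard4 and Elovl6 were the members most above MP level in wild-type LSK. Stard4 read 1385 in wild-type LSK and 605 in wild-type MP (log2 1.19), but its other probe sets gave log2 -0.04 and 0.20. Elovl6, which lengthens palmitate to stearate, read 3496 in Fbw7-deficient LSK and 1941 in Fbw7-deficient MP, and 3491 in wild-type LSK and 1859 in wild-type MP (log2 0.85 and 0.91), with log2 0.95 and 0.88 on a second probe set. Elovl6 thus differed between the populations alike in both genotypes and hardly between genotypes. Insig1 was the third above 1.5-fold in wild-type cells (log2 0.61). Fdps and Tm7sf2 were the 2 below, at log2 -0.96 and -0.66 in wild-type cells and -0.14 and -0.19 in Fbw7-deficient cells. In Fbw7-deficient cells Hmgcs1 (log2 0.82) and Elovl6 were above 1.5-fold, and Acss2 (log2 -1.56) and Scd1 (log2 -0.93) were below.

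The other genes of lipid metabolism were taken as 7 lists of 81 genes, of which 71 had a probe set of their own and 65 passed the filter. For the counts below, 4.5% of all genes were at least 1.5-fold higher and 7.08% lower in LSK, and 2.97% and 5.26% in MP. Above 0 were 50.7% of all genes in LSK and 49.6% in MP. None of the 7 lists had a median as high as that of the sterol enzymes (log2 0.30 in LSK and 0.27 in MP) in both populations. In MP alone glycerolipid synthesis was slightly higher, and in LSK citrate and NADPH supply came close. Other mevalonate, sterol and isoprenoid enzymes, such as the prenyltransferase subunits Fnta and Fntb, had medians of log2 0.07 in LSK and 0.06 in MP over 10 genes, with none 1.5-fold apart. Fatty acid oxidation genes had medians of -0.17 and -0.02 over 11 genes, none 1.5-fold apart. Genes of citrate and NADPH supply had medians of 0.28 and 0.07 over 7 genes, with 2 at least 1.5-fold higher in LSK, Idh1 (log2 0.91) and Mid1ip1 (0.69), and none in MP. Glycerolipid synthesis genes had medians of -0.02 and 0.28 over 8 genes, and all 8 were above 0 in MP. Dgat2, which makes triglyceride, was the one at least 1.5-fold higher there (log2 0.69, and 0.81 in LSK). Its other probe set gave less, log2 0.28 in MP and 0.25 in LSK, so this call rests on the brightest one.

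**Figure D4:**
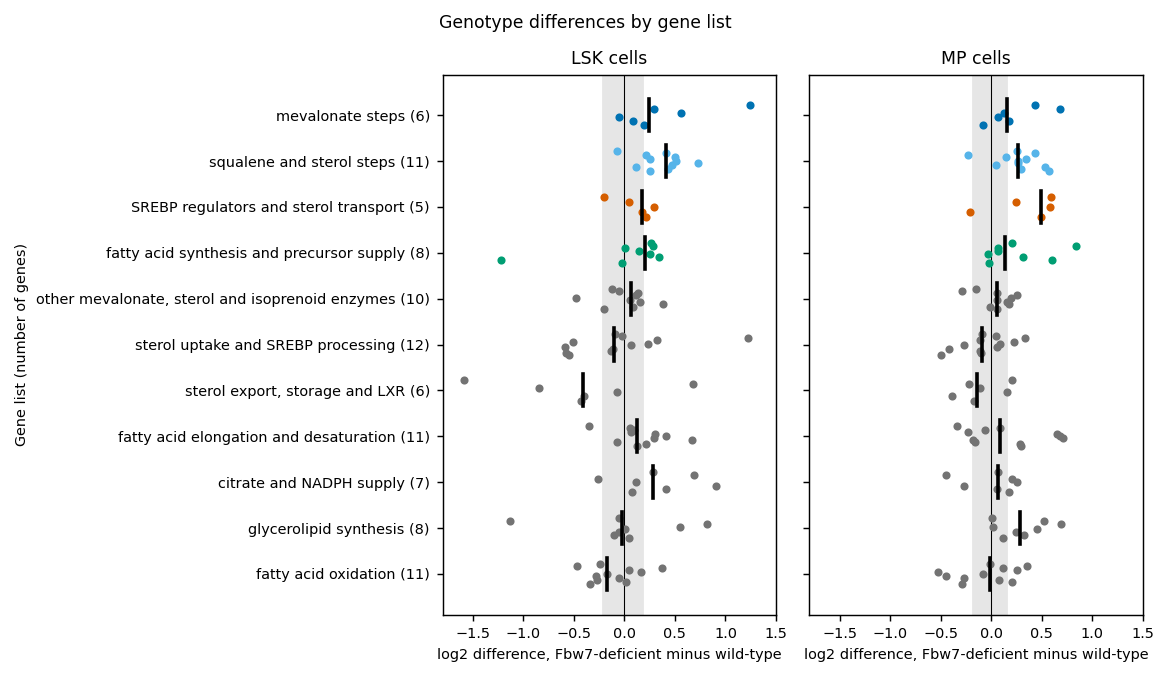
Log2 difference between Fbw7-deficient and wild-type cells (x axis) for each gene (points) of the 4 member groups (coloured) and the 7 related lists (grey), in LSK (left) and MP (right), with black bars at list medians and a grey band between the quartiles of all 12239 genes. The squalene and sterol steps have medians of 0.41 and 0.27, and the list of sterol export has medians of -0.41 and -0.14 with Cyp7b1 included.

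Sterol uptake and SREBP processing genes had medians of log2 -0.10 in LSK and -0.10 in MP over 12 genes. In LSK 1 was at least 1.5-fold higher (4.5% of all genes) and 1, Npc1 (log2 -0.59), lower by that much (7.08%). In MP none was 1.5-fold higher (2.97%) or lower (5.26%). The one higher was Tmem97, a sterol-responsive protein of the endoplasmic reticulum, which like Fdps was lowest in wild-type LSK and highest in Fbw7-deficient MP. Tmem97 read 909 in Fbw7-deficient LSK and 390 in wild-type LSK, and 1270 in Fbw7-deficient MP and 1004 in wild-type MP (log2 1.22 and 0.34). Insig2, the relative of Insig1, pointed the other way on its brightest probe set, at log2 -0.55 and -0.50, although another probe set gave 0.07 in MP. Vldlr, a lipoprotein receptor gene named after its values were seen, read 1399 in Fbw7-deficient LSK and 1988 in wild-type LSK, against 64.6 in Fbw7-deficient MP and 55.2 in wild-type MP. Its MP values lay under the filter and are not shown to be above background, and 4 of its 5 other probe sets were above the filter in LSK too.

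The measured genes of sterol export, storage and oxysterol metabolism had medians of log2 -0.40 in LSK and -0.17 in MP over 5 genes. Below 0 were 4 of 5 in LSK (6022 of all 12239 genes) and 4 of 5 in MP (6167). A sixth gene, Cyp7b1, passed the filter on 1 array only and is left out of these counts, a choice made after seeing the data. The cholesterol export pumps Abca1 and Abcg1 were at log2 -0.43 and -0.40 in LSK and -0.17 and -0.38 in MP. Abca1 read 1146 in Fbw7-deficient LSK and 1542 in wild-type LSK, and 435 in Fbw7-deficient MP and 489 in wild-type MP. Nceh1, a hydrolase of stored cholesterol esters, was at log2 -0.85 in LSK and -0.11 in MP. The exception in LSK was Cyp27a1, a sterol hydroxylase, at log2 0.68, and the LXR gene Nr1h3 did not pass the filter. Cyp7b1, an oxysterol hydroxylase, read 72.4 in Fbw7-deficient LSK and 217 in wild-type LSK, and was no higher than 72.4 on the other arrays, so only its wild-type LSK value passed the filter. Between populations, without Cyp7b1, 2 of 5 genes of this list were at least 2-fold higher in LSK in Fbw7-deficient cells (3.86% of all genes) and 3 of 5 in wild-type cells (5.05%).

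Lpin1, a phosphatidate phosphatase of glycerolipid synthesis, had the pattern of Acss2 on its brightest probe set, with 355 in Fbw7-deficient LSK and 775 in wild-type LSK, and 810 in Fbw7-deficient MP and 562 in wild-type MP (log2 -1.13 and 0.53). Its second probe set was lower in both, at log2 -0.69 in LSK and -0.14 in MP. In MP the desaturase genes Fads1, Fads2 and Fads3, which were named after their values were seen, were at log2 0.71, 0.68 and 0.65, beside Scd1 at 0.84, and at 0.30, 0.41 and 0.31 in LSK. Fads1 read 1565 in Fbw7-deficient LSK and 1275 in wild-type LSK, and 1405 in Fbw7-deficient MP and 861 in wild-type MP. Further probe sets of Fads2 gave log2 0.65 and 0.29 in MP, that of Fads3 0.25 and that of Fads1 -0.05. No other of the 11 measured genes of elongation and desaturation was at least 1.5-fold higher in MP, where 2.97% of all genes were. In LSK only Elovl7 was (log2 0.67), where 4.5% of all genes were. The medians of these 11 were log2 0.12 in LSK and 0.09 in MP.

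Markers of other cells moved with the LSK genotype comparison. All 11 measured genes of neutrophils and monocytes were higher in Fbw7-deficient LSK (median log2 1.11), with summed intensities of 189730 in Fbw7-deficient LSK and 96268 in wild-type LSK. All 9 erythroid genes above the filter were higher too (median 1.58, sums of 25418 and 7193), and all 9 stem cell genes lower (median -1.41, sums of 17718 and 41578). The erythroid gene Hba-a1, under the filter on all 4 arrays, was at log2 -0.175 in LSK. In MP the erythroid genes were again higher in Fbw7-deficient cells for 9 of 9 (median 0.94, sums of 56165 and 33252), and the stem cell genes were lower for 9 of 9 (median -0.68, sums of 4844 and 7994). The neutrophil and monocyte genes were above 0 for 8 of 11 in MP, with a median of 0.05. Genes of cell division differed little, with medians of 0.10 in LSK and -0.04 in MP and none of 9 at least 1.5-fold apart. Megakaryocyte genes (6) had medians of -1.03 in LSK and -0.39 in MP, and B cell genes (6) of 0.49 and -0.61. T and NK cell genes (3) had medians of 0.02 and 0.00, but 1 of them, Thy1, was at log2 -1.335 in LSK. Genes of stromal, endothelial and fat cells (5) had medians of 0.17 and 0.05. Among these last, single genes differed widely in both directions: the collagen genes Col1a2 and Col1a1 were at log2 2.30 and 1.01 in LSK and 0.96 and 1.14 in MP, and Pdgfrb, a receptor of mural cells, at -2.29 in LSK and -2.49 in MP. The part of these cell types in the lipid synthesis results was not tested. Adipoq and Fabp4, listed as fat cell genes, lay under the level filter on all 4 arrays, at 31 to 33 and at 93 to 111.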

How the data were processed

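RNA of 4 sorted populations was hybridised to Affymetrix arrays, 1 array per group, with groups taken from the sample titles. Per the labels' protocols, 20 ng of total RNA was amplified in a Two-Cycle protocol. The authors deposited linear intensity values, 1 per probe set and array, made with RMA per the submitters' processing notes, without a version or settings in the sources used here. RMA makes the distributions of arrays equal and compresses differences of dim genes (array medians 155 to 159), so shifts shared by most genes are not seen. A low intensity was not called absent.

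Of 45101 probe sets, 34945 name 1 gene, 932 name several and 9224 are unnamed or controls; 34741 probe sets were matched by gene ID to RefSeq (GRCm38.p6). Log2 values of the brightest probe set per gene were subtracted between arrays (Python 3.11.15, pandas 2.3.3), and the counting was tested on simulated data. Genes whose highest value reached the median of all values (157) were kept. A gene is called at 1.5-fold, and 2-fold is also given. Members at least 1.5-fold apart between genotypes or 2-fold between populations, and Srebf1, Srebf2, Insig1 and Scap, are given on every array, and related genes at 2-fold between genotypes are named; other related genes that are named were named outside this rule, after their values were seen. Members and lists were chosen with earlier results of these data known. Alternatives changed the probe set, the level filter, the scaling and an offset.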

Additional observations from a re-analysis of the deposited data

Results flagged for a closer look

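Acss2 differed at least 1.5-fold in opposite directions in the 2 populations: the Fbw7-deficient minus wild-type log2 difference was -1.23 in LSK and 0.60 in MP, which lie log2 -1.82 apart. With 1 array per group the difference was not tested. Of all genes, 1.32% had genotype differences at least 2-fold lower in LSK than in MP. The second probe set of Acss2 gave -0.73 and 0.23.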

How the results depend on the processing

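The 13 medians and counts of the members were recomputed under 7 planned settings: the mean of all probe sets, no probe sets of cross-reacting kinds (25 members left), a doubled level filter (28 members left), no filter, centring on the median, quantile normalization and an offset of 50. The 5 medians were also recomputed on the second-brightest probe set of the 14 members with one, which was chosen after seeing the data. A median was counted as moved past 0.1 and a count past 1.5 times; 89 of 96 values did neither. Over the planned settings the member median kept within 0.21 to 0.29 in LSK, 0.15 to 0.28 in MP, -0.03 to 0.09 between wild-type LSK and MP, 0.02 to 0.10 between Fbw7-deficient LSK and MP, and -0.04 to 0.05 for the difference of the genotype differences. The median in MP was 0.155 with the mean of all probe sets, and on the second-brightest probe set it was 0.034 in MP and 0.147 in LSK. Those 14 genes are a part of the members, so the second-brightest medians also reflect a change of genes. The 4 members at least 1.5-fold higher in MP became 1 with the mean of all probe sets, 2 without cross-reacting kinds and 2 with the offset. They became 5 with centring and 6 with quantile normalization, which did not count as moved. The 2 members at least 1.5-fold lower in LSK among wild-type cells became 1 with the mean of all probe sets. Of 1070 single differences of members, 1 past 1.5-fold changed sign: Stard4 between wild-type LSK and MP, at -0.043 on the second-brightest probe set. Another 13 were counted as moved, 9 of them among the 70 on the second-brightest probe set. Sign changes of smaller differences were not counted as such, for example Mvd in MP, from 0.126 to -0.122 on the second-brightest probe set. The causes were not tested. No paired analysis was possible because each group has 1 array. The number of arrays limits the precision, and Me1 lies near the level filter.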
